A study of Mus musculus with 6 samples.

Results

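Integrins and the cytoplasmic proteins of focal adhesions were examined as a group of 34 genes, chosen by name: 12 integrin alpha subunits, 7 beta subunits and 15 proteins of the adhesion plaque. They are 34 of the 49315 genes listed in the count files, and 33 of them held enough reads to be tested, the exception being Itgb6 with 13 reads over all lines. The counts come from poly(A)-selected RNA of mouse embryo fibroblast lines (C57BL/6, passage 4, untreated, each line grown from 1 embryo). The SG lines (SG1, SG2 and SG3) lacked p53 and carried, on both chromosomes, a knocked-in MDMX allele with the substitutions W201S and W202G. The WT lines (WT3, WT9 and WT11) also lacked p53 and carried wild-type MDMX. All lines thus share the p53 deletion, and cells with p53 were not analysed here. MDMX, encoded by Mdm4, binds and inhibits p53 and also binds casein kinase 1 alpha, and the study asked which genes the substitutions affect where p53 is absent.

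Integrins are receptors made of an alpha and a beta subunit that span the plasma membrane and hold the cell to its matrix. The alpha subunit largely sets the ligand: collagens, laminins, or proteins such as fibronectin and vitronectin that carry the amino acid motif RGD. Inside the cell, talin and kindlin bind the beta subunit's tail and activate the receptor, and vinculin, zyxin, tensins and the complex of ILK, PINCH and parvin link it to actin, while focal adhesion kinase and paxillin relay signals. Fibroblasts on a culture dish are known for large focal adhesions of this kind.

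Libraries held between 49317925 and 65457242 assigned reads, and the 34 genes took between 0.772% and 0.857% of them. Mdm4 stood at 63.8, 58.95 and 57.4 CPM (read counts relative to library size, scaled by the TMM method) in SG1, SG2 and SG3, against 63.1, 59.1 and 58.99 CPM in WT3, WT9 and WT11. Substitutions of a few bases leave no mark in a gene's read count, and the genotype labels could not be checked by it. Of 7 fibroblast markers, Col1a1 lay between 5453 and 6954 CPM, and Pdgfra was lowest, between 37.2 and 92.1 CPM. Markers of blood cells summed to at most 64.2 CPM and epithelial markers to at most 46.8 CPM in any line. Smooth muscle and pericyte markers summed to between 4604 and 5668 CPM, with Acta2 between 3520 and 4339 CPM. SG1 and WT9 stand apart from the other lines on the second principal component and in Xist, at 399 and 343 CPM against at most 0.7002 CPM elsewhere, so the counts of members and of list genes past the adjusted threshold are also given without them. No litter, culture day or sequencing run is named by the labels.

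The lines of both genotypes transcribed the same set of integrins in nearly the same order of abundance. Levels of different genes are compared here as RPKM, the CPM per kilobase of exon, with the exon length of the count files. Itgb1, the beta subunit that pairs with most alpha subunits, exceeded every other member, with 712, 699 and 646 RPKM in SG1, SG2 and SG3, against 617, 675 and 611 RPKM in WT3, WT9 and WT11. It made up between 87.2% and 89.6% of the summed beta subunit RPKM in each line. Itgb5, a vitronectin receptor subunit that pairs with alphav, came next at 73.7, 73.6 and 86.8 RPKM in SG lines, against 80.1, 84.9 and 80.5 RPKM in WT lines. Itgb3, another partner of alphav, lay between 5.32 and 8.42 RPKM in SG lines and between 7.39 and 10.5 RPKM in WT lines. The genotypes overlapped for all of these beta subunits.

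Among alpha subunits, those that bind RGD ligands led. Itga5, the fibronectin receptor subunit, stood at 102, 92.8 and 86.02 RPKM in SG1, SG2 and SG3, against 89.5, 103 and 78.03 RPKM in WT3, WT9 and WT11. Itgav, which pairs with several beta subunits, followed at 51.9, 54.5 and 51.4 RPKM in SG lines, against 46.4, 48.3 and 47.02 RPKM in WT lines, and every SG line lay above every WT line. The laminin receptor subunit Itga3 came next (18.6 to 28.4 RPKM in SG lines, 13.7 to 15.8 in WT lines), and the collagen receptor subunit Itga11 had 11.6 to 24.02 RPKM in SG lines and 6.01 to 10.3 RPKM in WT lines. In SG lines Itga11 averaged above Itga6 (16.9 and 9.59 RPKM), and in WT lines below it (8.13 and 10.1 RPKM). Itga6 and Itga7, which bind laminins, lay near 10 RPKM, between 8.75 and 11.1 for Itga6 and between 6.98 and 10.1 for Itga7, and their ranges overlap. The nephronectin receptor subunit Itga8 lay between 3.33 and 5.32 RPKM. Itga4, a receptor subunit for fibronectin and the cell surface protein VCAM1, overlapped it at 0.920 to 5.41 RPKM. Itga1, Itga2, Itga9 and Itga10 lay under 1.3 RPKM in every line. Exon length here covers all annotated transcripts of a gene, 13978 bases for Itga4 and 18357 for the talin gene Tln2, so the RPKM of such genes are understated if the cells use shorter transcripts.

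The remaining beta subunits were scarce. Itgb6, an epithelial partner of alphav, had at most 0.00881 RPKM in any line, and Itgb4, the hemidesmosome subunit of epithelia, lay between 0.0654 and 0.0941 RPKM. Itgb7, a lymphocyte subunit, lay between 0.197 and 0.449 RPKM, and Itgb8, a partner of alphav that takes part in TGF-beta activation, between 0.526 and 0.961 RPKM. Of 8 integrin genes outside the group, which belong to leukocytes and platelets, 5 were tested and 0 passed the threshold with edgeR, 0 at an unadjusted p under 0.05 and 0 with DESeq2. Itgal, the leukocyte subunit with the smallest p among them, stood at 0.779, 0.658 and 1.52 CPM in SG lines, against 0.720, 0.627 and 0.383 CPM in WT lines, and the genotypes overlapped.

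In the adhesion plaque, Fermt2 (kindlin 2, which activates integrins) had the highest level, with 120, 132 and 117 RPKM in SG1, SG2 and SG3, against 113, 121 and 112.5 RPKM in WT3, WT9 and WT11. Zyx (zyxin, a sensor of tension on actin) stood at 109.9, 112 and 108 RPKM in SG lines, against 97.2, 115 and 99.4 RPKM in WT lines. Vcl (vinculin, which couples talin to actin) lay between 93.05 and 107 RPKM. The range of Zyx overlaps those of both other genes, whereas every Fermt2 value lies above every Vcl value. Tln1, the main talin, lay between 75.3 and 84.7 RPKM, below the lowest Vcl value. The scaffold genes Lims1 (PINCH1), Parva and Ilk had means of 37.8, 36.5 and 21.4 RPKM over the 6 lines, Ptk2 (focal adhesion kinase) 24.6, Tns3 20.8, Tns1 17.8, Tns2 10.5 and Pxn (paxillin) 9.40 RPKM. The second paralogs were scarcer, at 5.40 RPKM for Tln2, 3.05 for Parvb and 1.86 for Lims2. Exons of Ilk, Tln1, Vcl and Zyx overlap exons of genes on the opposite strand, and as the strand setting is not given, reads in those overlaps cannot be assigned. This weighs most on Ilk, with 20819 reads against 48204 for its overlapping partners Rrp8 and Taf10.

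**Figure D1:**
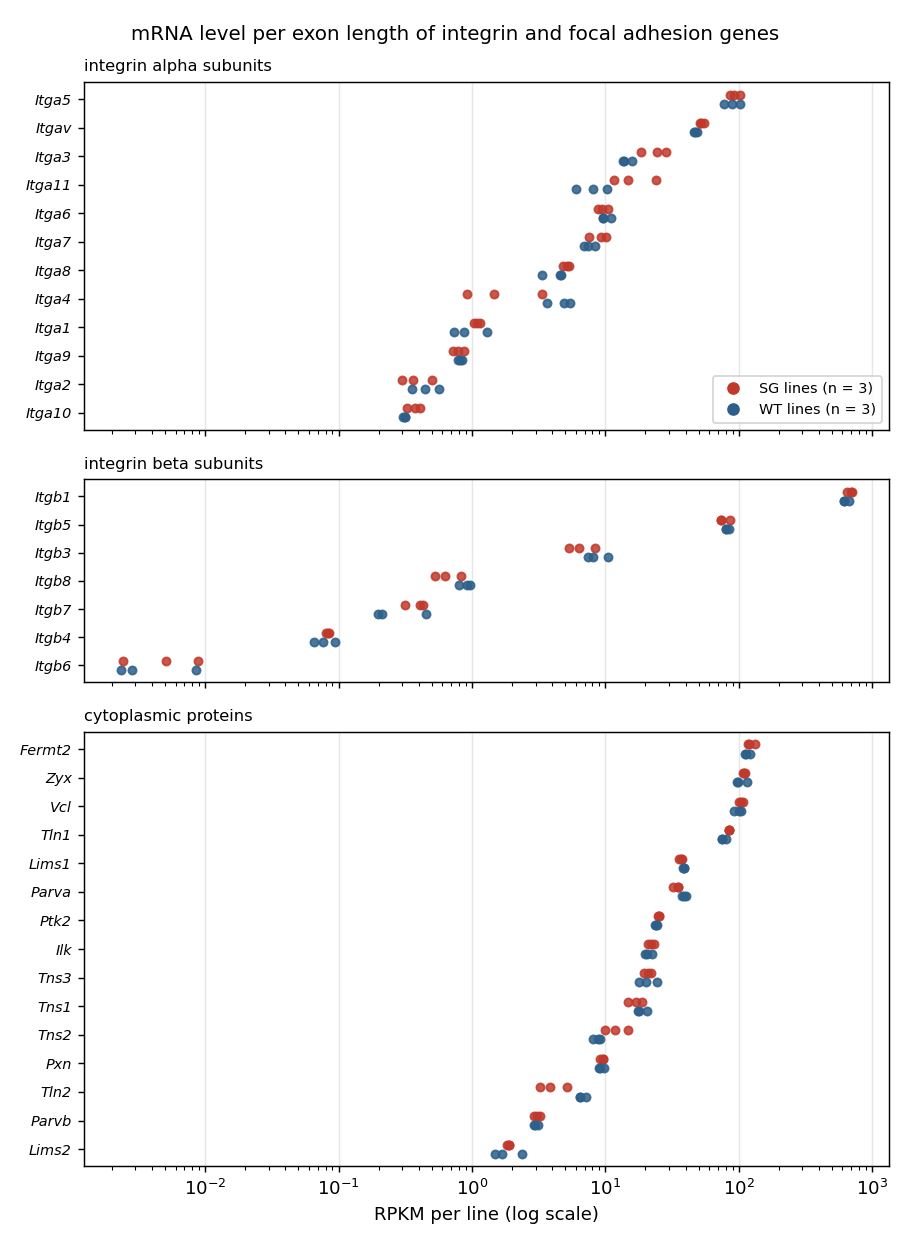
RPKM on a log scale (x) of the 34 integrin and focal adhesion genes, with SG lines as red points above WT lines as blue points, 1 point per line. Itgb1, Itgb5 and Itga5 lead the integrins, Fermt2, Zyx and Vcl lead the plaque proteins, and Itgb6 lies lowest at 0.00881 RPKM or less.

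In the comparison of SG with WT lines, 0 of 33 tested members passed the threshold (edgeR quasi-likelihood test, Benjamini-Hochberg adjusted p under 0.05 over 16068 genes). Over all tested genes 306 passed, a background of 1.90%. At an unadjusted p under 0.05 there were 9 members (27.3%), beside a background of 15.5%. Of these, 5 had a positive log2 fold change (SG minus WT), beside 7.28% of all genes, and 4 a negative one, beside 8.20%. With DESeq2 3 members were higher (Itga3, Itgav and Tns2) and 2 lower in SG (Parva and Tln2), where 5.99% of all genes passed. Without SG1 2 were higher (Itga3 and Itga11) and 3 lower (Itga4, Tln2 and Itgb8), the background being 3.53%. The counts and genes were the same without SG1 and WT9, at a background of 4.36%. SG1 is the SG line nearest to WT for Itga3, Itga11, Itga4 and Tln2, and lies among the WT lines for Itgb8. Leaving SG1 out therefore raises the fold of these genes by construction, and the calls without it are no separate support. With any other single line left out, 0 members passed. SG and WT lines were fully separated in CPM for 12 of the 33 (36.4%), 8 higher and 4 lower in SG, beside 21.2% of all tested genes (10.0% higher and 11.2% lower). Whether these shares exceed the background beyond chance was not tested. The median log2 fold change of the members was 0.06, against 0.00 for all tested genes, and the median absolute value 0.13 against 0.09. All tested genes include many of low count. Among genes with a mean of at least 10 CPM, the median absolute value was 0.11 for 25 members and 0.05 for all 8947 genes.

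The largest log2 fold changes were those of the alpha subunits Itga4 (-1.29) and Itga11 (1.05), followed by Itga3 (0.72) and the talin gene Tln2 (-0.71). None passed the threshold. As a group, alpha subunits had a median absolute log2 fold change of 0.24, the same as beta subunits (0.24). The 6 members with the smallest p follow with their lines, together with Itga4, Tln1 and Itgb8, which were added after their values were seen because their unadjusted p was also under 0.05.

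Itga3 (ENSMUSG00000001507, chromosome 11, 95044474 to 95076801, minus strand, GRCm38), whose product forms the laminin receptor alpha3beta1, stood at 106, 162 and 138 CPM in SG1, SG2 and SG3, against 79.5, 78.1 and 89.95 CPM in WT3, WT9 and WT11. Every SG line lay above every WT line. The means were 136 ± 27.98 CPM in SG and 82.5 ± 6.49 CPM in WT (SD, n = 3 each), a 1.64-fold difference (log2 fold change 0.72, SE 0.14) that missed the threshold narrowly (edgeR adjusted p = 0.0511). Of 14 other settings 5 brought it past the threshold, and its adjusted p ranged over them from 8.07e-07 (DESeq2) to 0.186 (without WT3), with 0.00406 without SG1. Epithelial markers, which accompany Itga3 in many tissues, summed to 46.8, 46.7 and 18.9 CPM in SG lines, against 22.5, 26.02 and 12.4 CPM in WT lines, with 5 of 8 tested and 0 past the threshold (edgeR; 2 at an unadjusted p under 0.05 and 1 with DESeq2). All 5 tested markers had positive log2 fold changes, with a median of 0.64. Krt14, a basal keratin, lay between 0.308 and 1.504 CPM in SG lines and between 0.0917 and 0.267 CPM in WT lines, without overlap. Its partner keratin Krt5, which was not tested, had 162 and 107 reads in SG1 and SG2 and 0 in the other lines, and Esrp1 was under 0.1 CPM in every line. The largest terms of the sums were Krt18 (22.1, 23.3 and 13.2 CPM in SG lines, against 15.3, 14.05 and 8.39 CPM in WT lines) and Cldn4. Cldn4 stood at 18.99, 18.9 and 4.365 CPM in SG lines, against 5.66, 10.4 and 2.815 CPM in WT lines. Both overlapped between genotypes, as did Krt8. Cdh1 was at 0.141 CPM or less in every line. Epcam lay between 0.308 and 0.392 CPM in SG lines and between 0.280 and 0.300 CPM in WT lines. The part of these epithelial markers in the result was not tested.

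Itga11 (ENSMUSG00000032243, chromosome 9, 62677826 to 62783982, plus strand) encodes a subunit of the collagen receptor alpha11beta1, a receptor of mesenchymal cells. It stood at 59.7, 76.5 and 123 CPM in SG1, SG2 and SG3, against 30.8, 52.8 and 41.5 CPM in WT3, WT9 and WT11. The SG lines spread widely, SG3 lying highest and SG1 close to WT9, without overlap. The means were 86.5 ± 32.9 CPM in SG and 41.7 ± 10.95 CPM in WT (SD, n = 3 each; log2 fold change 1.05, SE 0.28, edgeR adjusted p = 0.116). The log2 fold change was 1.26 without SG1 (adjusted p = 0.0434) and 0.71 without SG3 (adjusted p = 0.164), and the adjusted p ranged from 0.00326 to 0.310 over all settings tried.

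Itga4 (ENSMUSG00000027009, chromosome 2, 79255426 to 79333123, plus strand) encodes the alpha4 subunit, known from leukocytes, muscle progenitors and neural crest. It stood at 47.1, 20.4 and 12.9 CPM in SG1, SG2 and SG3, against 75.7, 68.8 and 51.4 CPM in WT3, WT9 and WT11. Every SG line lay below every WT line, SG1 only slightly below WT11. This was the largest difference of the group by fold, with means of 26.8 ± 18.01 CPM in SG and 65.3 ± 12.5 CPM in WT (SD, n = 3 each; log2 fold change -1.29, SE 0.42), with a wide spread among SG lines, and it did not pass (edgeR adjusted p = 0.182). Without SG1, the SG line nearest to WT, the log2 fold change was -1.97 (adjusted p = 0.00633). Over all settings tried the adjusted p ran up to 0.458. Of 12 blood cell markers 10 were tested, with 0 past the threshold with edgeR, 1 at an unadjusted p under 0.05 and 1 with DESeq2. The markers summed to 29.3, 33.4 and 64.2 CPM in SG lines, against 34.6, 33.2 and 13.3 CPM in WT lines. All 10 tested blood cell markers had positive log2 fold changes, with a median of 0.59. Neural and Schwann markers, 6 of 7 tested and 0 past the threshold (edgeR; 3 at an unadjusted p under 0.05 and 2 with DESeq2), summed to 64.3, 54.7 and 59.04 CPM in SG lines, against 79.1, 72.9 and 76.0 CPM in WT lines, without overlap. Of the 6 tested, 5 had negative log2 fold changes. Sox2, a factor of neural progenitors, stood at 0.217, 0.423 and 0.496 CPM in SG lines, against 4.08, 0.596 and 3.90 CPM in WT lines, and Map2, a neuronal microtubule protein, at 21.98, 17.1 and 16.04 CPM in SG lines, against 30.3, 24.3 and 28.8 CPM in WT lines, both without overlap. Sox10, the defining factor of neural crest glia, was at 0.240 CPM or less in every line, with a log2 fold change of 0.34 (SE 0.49). The part of these markers in the result was not tested. In bulk RNA, fewer cells of a type and less RNA per cell cannot be told apart.

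The promoters of these 3 alpha subunit genes, which had the largest log2 fold changes of the group beside Tln2, are shown as RefSeq gives them (GRCm38.p6), from 250 bases before to 50 bases after the annotated start. Of 2 entries for Itga3 the one nearest the gene's 5′ end was taken. Capitals mark matches to the GC box GGGCGG, which was searched on both strands and matched only as printed.
Itga3, chr11:95076665-95076964, minus strand: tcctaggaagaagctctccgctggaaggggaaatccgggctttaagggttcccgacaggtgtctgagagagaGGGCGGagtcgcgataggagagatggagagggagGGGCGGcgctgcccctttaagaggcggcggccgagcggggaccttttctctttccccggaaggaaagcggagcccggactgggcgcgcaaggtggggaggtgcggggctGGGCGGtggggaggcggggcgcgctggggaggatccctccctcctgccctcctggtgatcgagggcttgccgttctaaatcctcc
Itga11, chr9:62677605-62677904, plus strand: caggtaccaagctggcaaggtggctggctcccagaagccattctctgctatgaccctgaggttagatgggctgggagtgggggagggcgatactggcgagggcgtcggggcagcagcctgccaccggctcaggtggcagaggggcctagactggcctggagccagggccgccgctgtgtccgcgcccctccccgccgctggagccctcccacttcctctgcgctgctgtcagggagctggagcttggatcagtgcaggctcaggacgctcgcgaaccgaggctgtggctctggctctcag
Itga4, chr2:79255176-79255475, plus strand: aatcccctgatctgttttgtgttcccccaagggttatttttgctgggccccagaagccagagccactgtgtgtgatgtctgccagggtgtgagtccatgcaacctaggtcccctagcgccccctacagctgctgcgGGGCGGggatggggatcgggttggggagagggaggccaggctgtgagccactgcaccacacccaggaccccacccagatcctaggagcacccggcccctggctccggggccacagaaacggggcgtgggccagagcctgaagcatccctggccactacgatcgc
Itga3 held 3 GC boxes, Itga11 held 0 and Itga4 held 1, while 35.7% of the 32851 RefSeq promoters in the table hold at least 1. CCAAT, the AP-1 motif TGANTCA, the TEAD motif GGAATG and TATAAA, also searched on both strands, had 0 matches in all 3, against 37.4%, 7.81%, 14.7% and 13.6% of all promoters. No match overlapped another. The GC content was 66.7% for Itga3, 68.0% for Itga11 and 64.3% for Itga4, with a median of 52.7% over all promoters. A letter match is a description of the window and shows no binding.

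The summed RPKM of all alpha subunits was 213.8, 218.5 and 212.7 in SG1, SG2 and SG3, against 185.2, 205.6 and 176.3 in WT3, WT9 and WT11, without overlap. Divided by ligand, RPKM of the laminin-binding alpha subunits (Itga3, Itga6 and Itga7) were 37.5, 47.1 and 42.4 in SG1, SG2 and SG3, against 30.96, 31.7 and 33.8 in WT3, WT9 and WT11. Those of the collagen-binding subunits (Itga1, Itga2, Itga10 and Itga11) were 13.7, 16.6 and 25.8 in SG lines, against 7.55, 12.5 and 9.57 in WT lines. Those of Itga4 and Itga9 were 4.10, 2.25 and 1.79 in SG lines, against 6.19, 5.77 and 4.49 in WT lines. The genotypes did not overlap in any of these 3 sums, which follow Itga3, Itga11 and Itga4 as their most variable terms. Those genes were already seen to differ, so the sums are no separate result for the ligand classes. The other genes of these classes had log2 fold changes between -0.25 (Itga2) and 0.25 (Itga10). The RGD-binding sum (Itga5, Itga8 and Itgav), the bulk of alpha subunit RNA, overlapped at 159, 153 and 143 RPKM in SG lines, against 141, 156 and 128 RPKM in WT lines. Its share of alpha subunit RPKM was 67.1% to 74.2% in SG lines and 72.8% to 75.9% in WT lines.

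**Figure D2:**
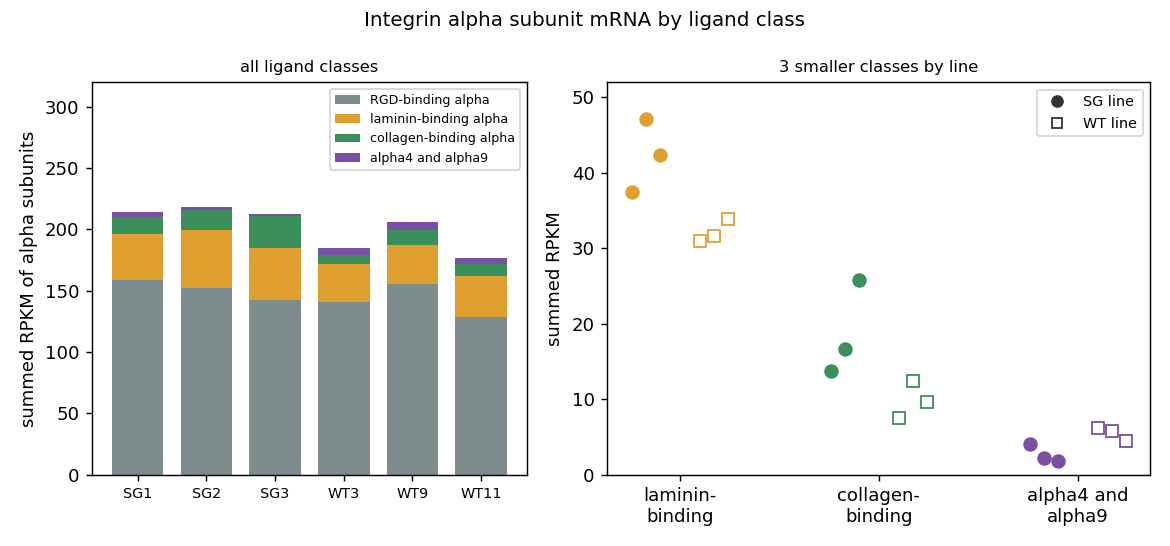
Left, summed RPKM of integrin alpha subunits (y) in each line (x), stacked by ligand class. Right, the 3 smaller classes by line, SG as filled circles and WT as open squares. The laminin-binding and collagen-binding sums lie higher in SG lines (37.5 to 47.1 and 13.7 to 25.8 RPKM) and the alpha4 and alpha9 sum lower (1.79 to 4.10 RPKM), without overlap. These sums follow Itga3, Itga11 and Itga4, in that order.

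Among the RGD receptors, Itgav (ENSMUSG00000027087, chromosome 2, 83724397 to 83806916) stood at 558, 586 and 553 CPM in SG1, SG2 and SG3, against 498, 519 and 505 CPM in WT3, WT9 and WT11. The difference was small and even across lines, 1.11-fold (log2 fold change 0.16, SE 0.04, edgeR adjusted p = 0.0818), and passed with DESeq2 alone (adjusted p = 0.0187), the adjusted p being up to 0.294 under other settings. On the log2 scale the difference was 0.27 for Itga8 (SE 0.12, edgeR adjusted p = 0.340) and 0.05 for Itga5 (SE 0.10, adjusted p = 0.853). The 95% interval of Itga5 ran from 0.882-fold to 1.22-fold, so a larger shift of the fibronectin receptor subunit lies outside it. Of the other alpha subunits, Itga7, Itga10, Itga1, Itga9, Itga6 and Itga2 had log2 fold changes between -0.25 and 0.25, with adjusted p from 0.364 to 0.914.

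Beta subunits showed no member past the threshold and none without overlap. Itgb8 stood at 9.15, 5.81 and 6.90 CPM in SG1, SG2 and SG3, against 10.1, 8.81 and 10.6 CPM in WT3, WT9 and WT11, SG1 lying among the WT lines (log2 fold change -0.44, SE 0.16, edgeR adjusted p = 0.251). Its adjusted p was 0.0415 without SG1 and ranged from 0.0281 to 0.541 over all settings tried. Itgb3 stood at 49.7, 37.2 and 31.4 CPM in SG lines, against 47.5, 61.8 and 43.6 CPM in WT lines, again with SG1 among the WT lines (log2 fold change -0.37, SE 0.18, adjusted p = 0.392). Itgb1 had a log2 fold change of 0.11 (SE 0.06) with a 95% interval from 0.989-fold to 1.18-fold, and Itgb5 of -0.07 (SE 0.07) with an interval from 0.856-fold to 1.06-fold. Itgb7 and Itgb4, at under 1.3 CPM, had log2 fold changes of 0.42 and 0.09 with SEs of 0.33 and 0.22. Their 95% intervals ran from 0.782-fold to 2.30-fold and from 0.745-fold to 1.51-fold. At that depth a rise of 1.5-fold in SG lies within both intervals, and a fall of 1.5-fold lies outside them.

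Of the plaque proteins, Tln2 differed most. Tln2 (ENSMUSG00000052698, chromosome 9, 67217087 to 67559703, minus strand) encodes the second talin and stood at 95.5, 70.2 and 59.5 CPM in SG1, SG2 and SG3, against 119, 118 and 133 CPM in WT3, WT9 and WT11. Every SG line lay below every WT line, SG1 nearest to them. The means were 75.1 ± 18.5 CPM in SG and 123 ± 8.21 CPM in WT (SD, n = 3 each; log2 fold change -0.71, SE 0.15, edgeR adjusted p = 0.0653). Of 14 other settings 4 brought it past the threshold, among them the fit without SG1 (adjusted p = 0.00375), and the adjusted p ranged from 0.000788 to 0.244 over all of them. Its paralog Tln1 stood at 824, 824 and 830 CPM in SG lines, against 739.5, 790.5 and 738.4 CPM in WT lines, with SG lines uniformly above WT lines by 1.09-fold (log2 fold change 0.13, SE 0.04, adjusted p = 0.148). Tln2 thus held 5.83%, 4.35% and 3.68% of talin RPKM in SG lines, against 7.91%, 7.37% and 8.75% in WT lines, and the sum of both talins was 87.9 to 89.3 RPKM in SG lines and 81.9 to 87.1 RPKM in WT lines.

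In the ILK, PINCH and parvin complex, Parva (ENSMUSG00000030770, chromosome 7, 112427505 to 112591692), which encodes the actin-binding alpha-parvin, stood at 356, 357 and 326 CPM in SG1, SG2 and SG3, against 394, 407 and 383 CPM in WT3, WT9 and WT11. All SG lines lay below all WT lines, by 1.14-fold (log2 fold change -0.19, SE 0.05, edgeR adjusted p = 0.0884), and the call was made with DESeq2 (adjusted p = 0.0126) and without a count filter (0.0310), with adjusted p up to 0.250 under other settings. Lims1 lay lower by less, at 184, 175 and 181 CPM in SG lines, against 187, 189 and 191 CPM in WT lines (log2 fold change -0.07, SE 0.03, adjusted p = 0.388). Ilk, Parvb and Lims2 had log2 fold changes of 0.08, 0.04 and 0.02, with adjusted p of 0.568, 0.848 and 0.975.

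Tensins connect integrin tails to actin at the older, fibrillar adhesions where fibronectin is assembled. Tns2 (ENSMUSG00000037003, chromosome 15, 102102988 to 102116401) stood at 55.8, 47.4 and 70.1 CPM in SG1, SG2 and SG3, against 43.4, 41.7 and 38.4 CPM in WT3, WT9 and WT11. SG lines lay above WT lines, SG2 nearest to them, by 1.41-fold (log2 fold change 0.49, SE 0.13, edgeR adjusted p = 0.110), with a call by DESeq2 (adjusted p = 0.00145) and without a count filter (0.00504), with adjusted p up to 0.320 under other settings. Tns1 and Tns3 overlapped between genotypes, with log2 fold changes of -0.15 (SE 0.10) and 0.00 (SE 0.10). Tns2 held 23.5%, 20.95% and 28.7% of tensin RPKM in SG lines, against 20.4%, 17.7% and 16.2% in WT lines.

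The other plaque proteins differed little. Ptk2 stood at 125, 124 and 127 CPM in SG1, SG2 and SG3, against 117, 123 and 119 CPM in WT3, WT9 and WT11, with a 95% interval of the fold from 0.989 to 1.11. Those intervals were 0.940 to 1.09 for Pxn, 0.975 to 1.14 for Vcl, 0.961 to 1.18 for Zyx and 0.977 to 1.16 for Fermt2. For each of these 5 genes a difference of 1.2-fold or more lies outside the interval, in either direction.

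**Figure D3:**
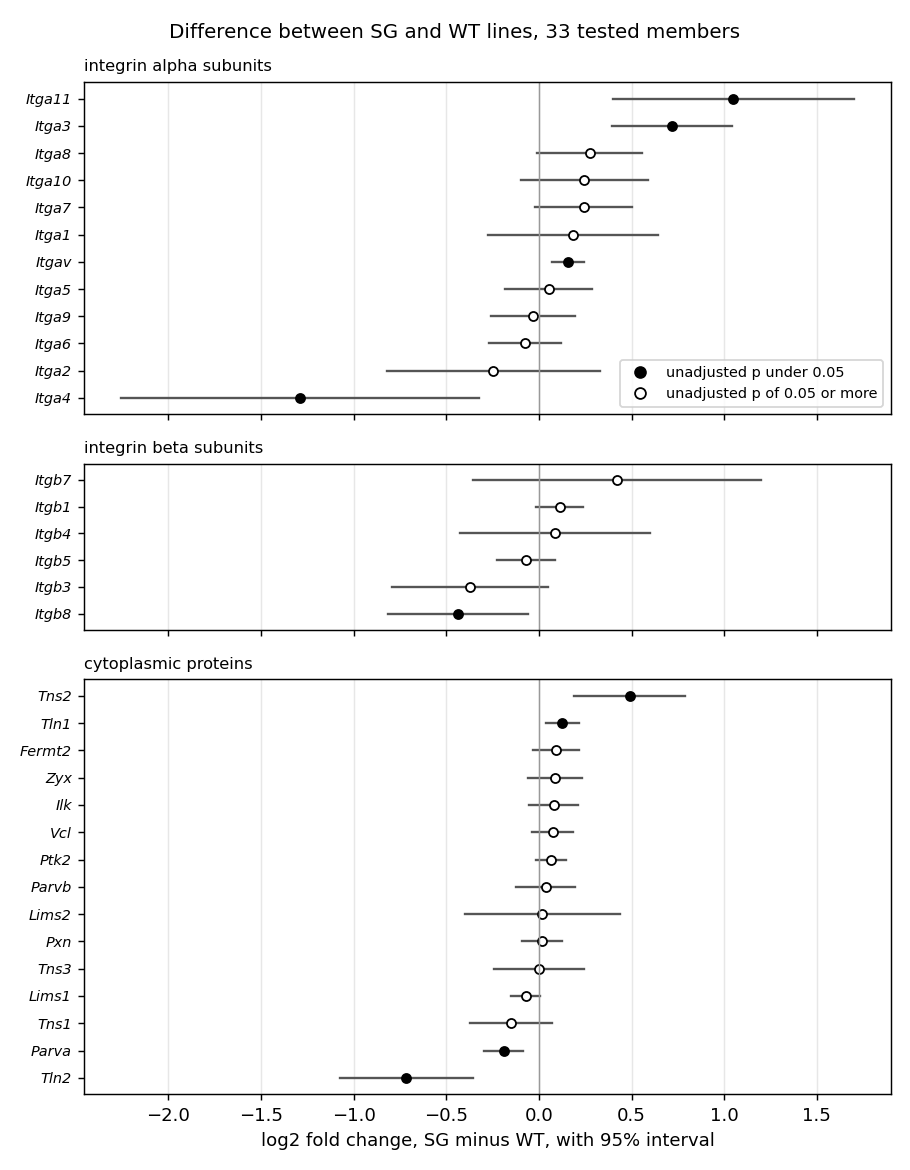
Log2 fold change of SG minus WT (x) with its 95% interval from the edgeR fit for the 33 tested members, by role and in order of size. Filled points have an unadjusted p under 0.05; none passed after adjustment, and Itga4 (-1.29) and Itga11 (1.05) lie farthest from 0.

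SG1 was often the SG line closest to the WT lines. Among the 12 members without overlap it was the nearest SG line for 7, namely Itga3, Itga4, Itga8, Itga11, Lims1, Tln1 and Tln2, while SG2 was for 4 and SG3 for 1. The nearest WT line was WT9 for 6, WT3 for 3 and WT11 for 3. How often each line is nearest over all tested genes was not counted. On the first principal component, over the 500 most variable genes, SG1 was also the SG line nearest to WT. It lay at -10.23, against -15.91 for SG2 and -18.28 for SG3. WT9 was there the WT line nearest to SG, at 5.74, against 15.84 for WT3 and 22.85 for WT11. SG1 and WT9 are the lines with Xist, and the part of this in the members' levels was not tested.

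**Figure D4:**
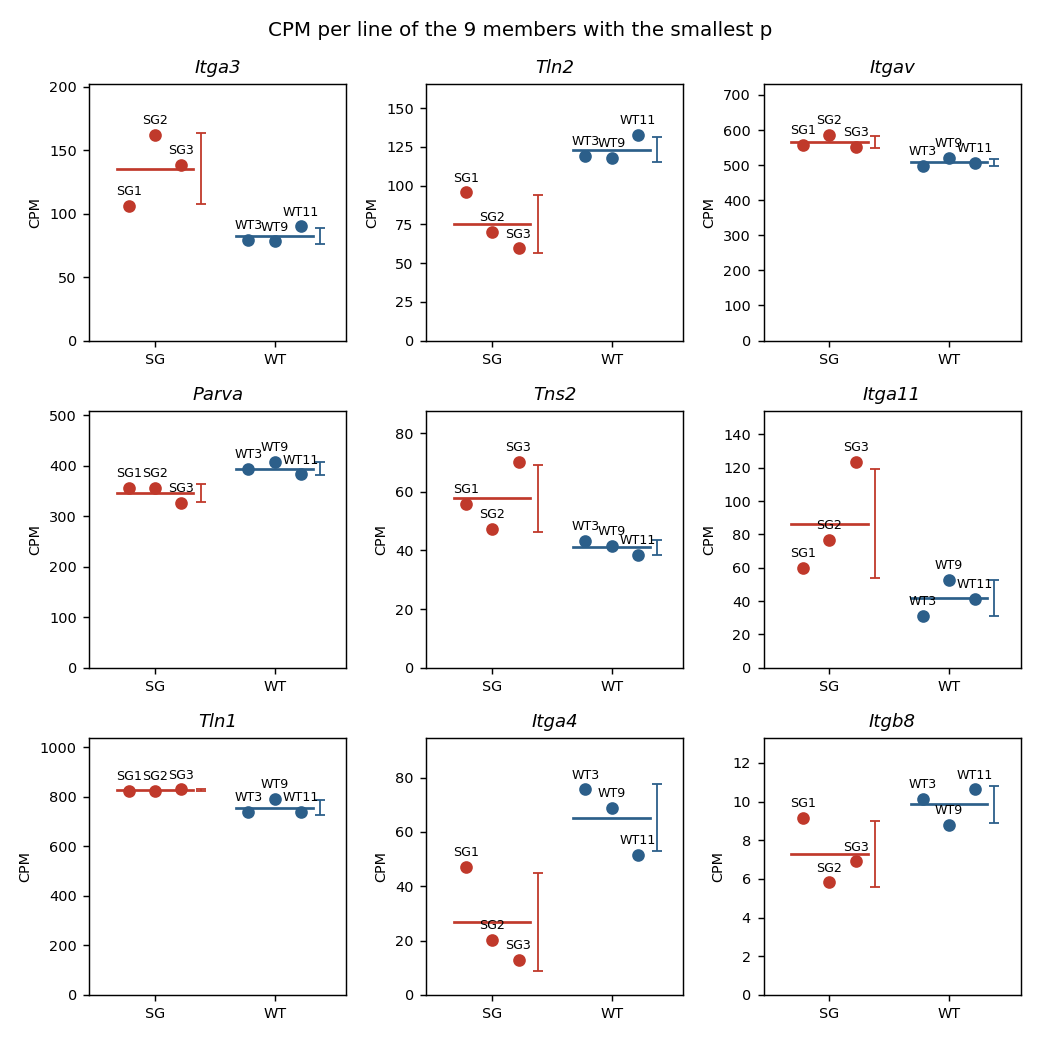
CPM (y, from 0) in each SG and WT line of the 9 members with an unadjusted p under 0.05; points are lines, horizontal bars the group means and brackets ± 1 SD (n = 3 each). SG and WT do not overlap in 8 panels, and in that of Itgb8 SG1 (9.15 CPM) lies above WT9 (8.81 CPM).

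Genes that act with these proteins were taken from 5 lists (other integrins, kinases and adaptors, actin linkers and LIM proteins, matrix ligands, and targets of the actin-responsive regulators SRF and YAP), 125 genes outside the group, of which 119 were tested. Over all of them 3 were higher and 3 lower in SG, beside 0.809% higher and 1.10% lower over all tested genes. Their median log2 fold change was 0.02, against 0.00 for all tested genes. At an unadjusted p under 0.05 there were 32 of them (26.9%), beside 15.5% of all tested genes. Whether the shares of these lists exceed those of all genes beyond chance was not tested. Calls over all genes, 306 with every line, numbered 3, 24 and 29 without SG2, WT3 and WT11, and the list counts there were 0 and 0. They were 9 and 4 without WT9 (460 calls over all genes), 2 and 5 without SG3 (222), and 10 and 5 without SG1 and WT9 (703). Without SG1 and WT9 the higher and lower counts by list were 0 and 0 for other integrins, 0 and 2 for kinases and adaptors, 5 and 0 for actin linkers, 5 and 3 for matrix ligands, and 1 and 0 for targets of SRF and YAP.

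Of 33 tested kinases, adaptors and GTPase regulators 0 rose and 2 fell with edgeR, with 1 and 4 at an unadjusted p under 0.05 and 0 and 2 with DESeq2. The unadjusted share was 15.2%, the background being 15.5% of all tested genes. DESeq2 called 5.99% of all genes. Ptk2b, the kinase PYK2 that is the close relative of focal adhesion kinase, fell to 14.8, 10.6 and 9.79 CPM in SG1, SG2 and SG3, against 24.0, 24.4 and 25.7 CPM in WT3, WT9 and WT11 (log2 fold change -1.08, SE 0.14, edgeR adjusted p = 0.0180). Cav1 (caveolin 1, the coat protein of caveolae) fell to 498, 543 and 534 CPM in SG lines, against 758, 642 and 723 CPM in WT lines (log2 fold change -0.43, SE 0.06, adjusted p = 0.0245). Neither gene's genotypes overlapped. Both calls were lost without SG2, WT3 or WT11, with adjusted p up to 0.1035 for Ptk2b and 0.107 for Cav1.

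Of 31 actin linkers and LIM proteins 2 rose and 0 fell with edgeR, with 9 and 3 at an unadjusted p under 0.05 and 5 and 1 with DESeq2. The unadjusted share was 38.7%, the background being 15.5% of all tested genes. DESeq2 called 5.99% of all genes. Sorbs2, an adaptor of actin and adhesions, rose to 28.8, 54.1 and 50.04 CPM in SG1, SG2 and SG3, against 7.04, 14.1 and 4.41 CPM in WT3, WT9 and WT11 (log2 fold change 2.37, SE 0.41, edgeR adjusted p = 0.0355), SG1 again lying nearest to WT9. Its exons overlap those of an antisense gene. Flnc (filamin C, an actin crosslinker) rose slightly and evenly to 712.5, 712 and 715 CPM in SG lines, against 606, 635 and 573 CPM in WT lines (log2 fold change 0.24, SE 0.04, adjusted p = 0.0385). The Sorbs2 call was lost without SG2, SG3, WT3 or WT11 and with a robust prior (adjusted p up to 0.155), and the Flnc call without SG1, SG2, SG3, WT3 or WT11 (up to 0.165).

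Of 33 tested matrix ligands 1 rose and 1 fell with edgeR, with 5 and 7 at an unadjusted p under 0.05 and 4 and 4 with DESeq2. The unadjusted share was 36.4%, the background being 15.5% of all tested genes. DESeq2 called 5.99% of all genes. Fn1, fibronectin, rose to 9483, 8721 and 8450.4 CPM in SG1, SG2 and SG3, against 6694, 7212 and 6265 CPM in WT3, WT9 and WT11 (log2 fold change 0.40, SE 0.07, edgeR adjusted p = 0.0308), whereas Itga5, its main receptor subunit, differed by a log2 fold change of 0.05. Tnn (tenascin-N, a glycoprotein of the matrix) fell to 2.39, 1.05 and 0.890 CPM in SG lines, against 7.98, 7.90 and 7.94 CPM in WT lines (log2 fold change -2.47, SE 0.32, adjusted p = 0.0180). The calls of Fn1 and Tnn were lost without SG2, WT3 or WT11, that of Fn1 also without SG1, with adjusted p up to 0.129 and 0.0985. Of 20 targets of SRF and YAP 0 passed with edgeR, with 4 at an unadjusted p under 0.05 (20.0%, beside the same 15.5%) and 2 with DESeq2. The one with the smallest p, Amotl2, a feedback regulator of YAP, differed by 0.18 on the log2 scale (SE 0.05, edgeR adjusted p = 0.130). The median of that list was 0.08.

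Among the marker lists, Thy1, a fibroblast surface protein that itself binds integrins, was lower in SG at 309, 264 and 267 CPM in SG1, SG2 and SG3, against 470.4, 438 and 472 CPM in WT3, WT9 and WT11 (log2 fold change -0.72, SE 0.07, edgeR adjusted p = 0.00802, and between 3.33e-21 with DESeq2 and 0.0630 without SG2). It and Fn1 were the 2 of 7 fibroblast markers that passed. Of the blood, epithelial, endothelial, smooth muscle, skeletal muscle and neural markers 0 passed with edgeR, with 1, 2, 1, 2, 1 and 3 at an unadjusted p under 0.05 and 1, 1, 1, 0, 0 and 2 with DESeq2, the smallest p in each list being that of Kit, Krt14, Kdr, Des, Cdh15 and Map2, with adjusted p of 0.146, 0.122, 0.240, 0.146, 0.117 and 0.0645. Of all tested genes 15.5% had an unadjusted p under 0.05, and 5.99% passed with DESeq2. Without SG1 and WT9, 2 smooth muscle markers (Des and Cspg4) were higher in SG, 2 neural markers (Map2 and Sox2) were lower, and 0 of the blood, epithelial, endothelial and skeletal muscle markers passed. Of the skeletal muscle markers, Acta1, skeletal muscle actin, stood at 63.2, 68.7 and 51.4 CPM in SG lines, against 100.1, 82.0 and 49.2 CPM in WT lines. Cdh15, a cadherin of muscle precursors, stood at 0.743, 1.03 and 0.719 CPM in SG lines, against 0.320, 0.535 and 0.316 CPM in WT lines, without overlap. Myf5, from the same list, lay the other way and was not tested. It had 0, 4 and 0 reads in SG lines, against 8, 8 and 11 reads in WT lines, and its CPM did not overlap. Pax7, the factor of muscle stem cells, had 0 reads in every line, and Myod1 and Myog were under 0.1 CPM, beside the muscle laminin receptor subunit Itga7 at 30.3 to 40.6 CPM in SG lines and 28.0 to 33.8 CPM in WT lines. The part of these markers in the levels of Itga7 and Itga4 was not tested.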

How the data were processed

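The deposited files hold raw counts of reads per gene for 6 lines, with the exon positions of each gene in featureCounts layout. The submitters' processing notes name Trimmomatic 0.36, STAR 2.5.2b, featureCounts of Subread 1.5.2 and DESeq2, with build GRCm38; the sources used here give no annotation release, strand setting or treatment of multimapping reads. Of 49315 identifiers 49056 had a symbol in GENCODE M21, and 0 rows named no gene.

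The counts were tested with edgeR 4.0.16 (R 4.3.3): filterByExpr at its defaults (16068 genes kept), TMM scaling, quasi-likelihood F-test of SG against WT, 2-sided, with no covariate, and Benjamini-Hochberg adjustment over all tested genes. SEs were obtained by dividing each log2 fold change by the root of its F statistic, and 95% intervals use the fit's total degrees of freedom. They cover the spread between 3 lines per genotype, each from its own embryo. CPM use TMM-scaled library sizes.

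Alternatives were other scalings and count filters, DESeq2 1.42.0, a robust prior and fits with lines left out. In a simulation of this comparison over 16068 genes with 200 changed, 73.1% of 1.5-fold, 95.5% of 2-fold and 100% of 4-fold changes were recovered, and 17 of 196 calls were false. Changed genes were drawn at random from those above 1 CPM, with the spread that the fit estimated for each. These shares therefore do not hold for genes that spread widely between lines. In the data Itga11, 2.07-fold higher in SG, and Itga4, 2.44-fold lower, did not pass.

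Values per line are given for up to 6 members with the smallest unadjusted p and for those of highest RPKM in each role. Of each list the genes past the threshold are named, or the one with the smallest p. The members, lists and alternatives were chosen with earlier results of these data known.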

Additional observations from a re-analysis of the deposited data

How the results depend on the processing

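With edgeR's quasi-likelihood test, 0 members passed in either direction under RLE scaling, library totals only, a filter of 1 CPM in 3 lines and a robust prior. Members higher and lower in SG numbered 1 and 0 with upper-quartile scaling, 3 and 3 without a count filter, 3 and 2 with DESeq2, and 2 and 3 without SG1 and WT9, where calls over all genes numbered 302, 959 (3.33% of 28807), 952 and 703, against 306 in the main analysis. Leaving out 1 line at a time gave 0 to 2 higher and 0 to 3 lower, the calls being those without SG1. Counts over the 5 lists, 3 and 3 in the main analysis, were 11 and 8 without a count filter, 10 and 7 with DESeq2, and 10 and 5 without SG1 and WT9, and with 1 line left out they ranged from 0 to 9 higher and from 0 to 5 lower. Of the 9 members with an unadjusted p under 0.05, each kept its sign in all 14 alternatives. For 8 of them, whose values do not overlap between genotypes, this adds nothing. The cause of these shifts was not tested.

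With a line left out, the fit pools the spread of both genotypes, and 3 lines per genotype limit the precision. Itgb6 could not be tested at 13 reads. No paired analysis was possible because the genotypes share only the line number 3, which does not link embryos.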
